A study of Mus musculus with 24 samples.

Results

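Atf4, Gdf15 and 8 further genes of the integrated stress response were followed in the mouse kidney after myocardial infarction (MI). The 10 genes, Atf4, Gdf15, Ddit3, Trib3, Chac1, Asns, Sesn2, Ddit4, Atf5 and Ppp1r15a, were all found by symbol among the 56941 genes of the deposited table, of which 30116 had a count. They were put forward with results of these kidneys known. Atf4 and Gdf15 were chosen by their level at 28d post-MI, so their values in the comparisons with the 28d kidneys are given as a description, without a test.

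Male wild-type C57BL/6 J mice, 8–11 weeks old at surgery, had the left anterior descending artery of the heart (LAD) tied off for good, which infarcts the left ventricle, or had a sham operation in which the artery was not tied. Kidney RNA was read by MACE (Massive Analysis of cDNA Ends), a method that counts mRNA by tags near its 3′ end. Values could be assigned to 22 of 24 kidneys, 8 from sham mice, 8 collected 5d post-MI and 6 collected 28d post-MI. All sham kidneys were taken at 5d and were the controls at 28d too, so at 28d the effect of MI and that of the later time after surgery cannot be told apart.

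The integrated stress response starts when one of several kinases phosphorylates the translation factor eIF2 in response to unfolded protein in the endoplasmic reticulum, a lack of amino acids, a lack of haem or viral RNA. Most translation then slows, while the mRNA of Atf4 is translated more, and the ATF4 protein switches on genes of amino acid supply, redox defence and, with its target CHOP, cell death. Because ATF4 is controlled at translation, its mRNA level is only part of its regulation, and neither protein nor eIF2 phosphorylation was measured in these libraries.

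Total counts per kidney were 2280618–3786275 in sham, 2351162–3382058 at 5d and 2522894–3269306 at 28d post-MI, and levels are given as CPM, counts scaled to library size, after TMM normalization. Proximal tubule genes were abundant in every library. The summed level of 6 such genes was 47529–57587 CPM in sham, 32706–64041 CPM at 5d and 59313–67692 CPM at 28d. All 6 kidneys at 28d lay above every sham kidney, but most of the sum was 1 gene, Kap. Its mean was 48618 CPM in sham and 58960 CPM at 28d (log2 fold change 0.28, SE 0.11, edgeR adjusted p = 0.479). Slc34a1 was at 0.01 (SE 0.07). Of the 5 tested genes, 2 were higher and 1 lower at 28d against sham at an unadjusted p under 0.05, beside 8.68% of all genes. The sum of 7 adipocyte genes was 298–1534 CPM in sham, 133–1081 CPM at 5d and 282–662 CPM at 28d. At 28d against sham 4 of its 6 tested genes were lower at an unadjusted p under 0.05, beside 540 of all 12780 tested genes. None of the 6 was called by edgeR or DESeq2, with Fabp4 at −1.08 (SE 0.42) and Cidea at −1.93 (SE 0.64) on the log2 scale. The part of these cell type genes in the members' values was not tested. Sham kidneys 2 and 6 carried 724 and 545 CPM of 5 adrenal cortex genes against at most 65.8 CPM in any other kidney, and results that change without these kidneys are named as such. Haemoglobin genes were high at 5d, with a summed erythroid level of 5000–19129 CPM against 2219–4153 CPM in sham. The sum of 6 tubular injury genes was 622–808 CPM in sham, 669–881 CPM at 5d and 544–674 CPM at 28d. Among 12780 genes that passed the filter on low counts, 9 (0.0704%) were called at an adjusted p under 0.05 by edgeR at 5d against sham, 3 (0.0235%) at 28d against sham and 53 (0.415%) at 28d against 5d. In bulk kidney, more RNA of a gene per cell and more cells that express it cannot be told apart.

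Atf4, the transcription factor at the centre of the response (chromosome 15, 80255184–80257541, plus strand, GRCm38), was even across sham kidneys and higher in the 28d kidneys. Its level was 122 CPM in the lowest, 127 in the median and 148 in the highest sham kidney, and 117, 126 and 151 CPM at 5d post-MI. At 28d it was 138, 177 and 204 CPM. Kidneys 2, 3 and 7 of the 28d group stood at 195, 204 and 199 CPM, and kidneys 1, 4 and 6 at 148, 159 and 138 CPM. Of the 6 kidneys at 28d, 5 lay above every sham kidney, where 0.806% of all tested genes had all or all but 1 of the 28d kidneys above every sham kidney, and 4 lay above every kidney at 5d. The sham mean was 129 ± 8.25 CPM (SD, n = 8) and the 28d mean 174 ± 28.7 CPM (SD, n = 6), so the spread at 28d was itself wider than in sham. The log2 fold change of 28d against sham was 0.43 (SE 0.07), and that of 28d against 5d was 0.45 (SE 0.07). At 5d against sham it was −0.01 (SE 0.07, edgeR adjusted p = 0.977), with a 95% interval of −0.15 to 0.12, and without the 2 kidneys with adrenal RNA it was 0.03.

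Gdf15 encodes a secreted stress cytokine of the TGF-beta superfamily that lowers food intake through a receptor in the brainstem, and is a known target of ATF4 and CHOP (chromosome 8, 70629393–70632456, minus strand). It took a different course from Atf4, with its lowest levels at 5d. In sham it was 13.8 CPM in the lowest, 18.1 in the median and 33.2 in the highest kidney. At 5d these values were 9.03, 11.3 and 24.1 CPM, and 6 of 8 kidneys lay below every sham kidney. At 28d they were 26.6, 32.2 and 54.6 CPM. All 6 kidneys at 28d lay above every kidney at 5d, a separation seen in either direction for 0.344% of all tested genes, and 3 of 6 lay above every sham kidney. The log2 fold change was 0.79 (SE 0.21) at 28d against sham and 1.45 (SE 0.22) at 28d against 5d. At 5d against sham it was −0.66 (SE 0.22), which did not pass the adjusted threshold in edgeR (adjusted p = 0.444, unadjusted p = 0.00757). Its receptor was not measurable here. Gfral had no count in any of the 22 kidneys, which allows up to 3 counts per kidney by counting error alone, and its co-receptor Ret was at 0.850 CPM or lower.

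**Figure D1:**
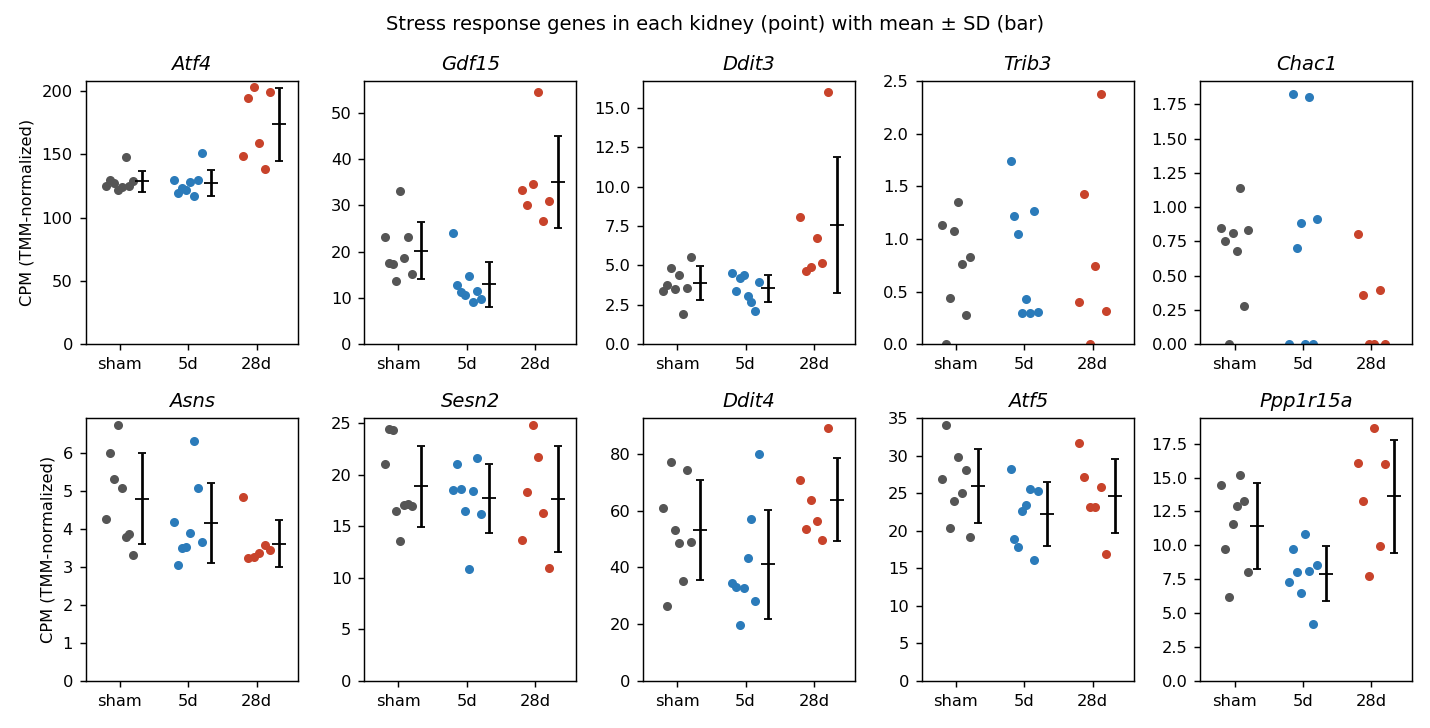
Level of each of the 10 genes in every kidney, in TMM-normalized CPM on an axis that starts at 0; points are single kidneys of the sham, 5d and 28d groups, and bars are mean ± SD (not drawn for Trib3 and Chac1, which were near the limit of detection). Atf4 at 28d runs from 138 to 204 CPM, Gdf15 is lowest at 5d, and Ddit3 has 1 kidney at 16.0 CPM at 28d.

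Ddit3 encodes CHOP, a transcription factor that acts downstream of ATF4 and promotes cell death under lasting stress (chromosome 10, 127290774–127296288, plus strand). It was the only one of the 6 tested genes besides Atf4 and Gdf15 that edgeR called in any comparison, while DESeq2 also called Ppp1r15a. Its level was 1.90 CPM in the lowest, 3.67 in the median and 5.55 in the highest sham kidney, 2.12, 3.66 and 4.54 CPM at 5d, and 4.65, 5.95 and 16.0 CPM at 28d. All 6 kidneys at 28d were above every kidney at 5d, where the groups did not overlap in either direction for 0.344% of all tested genes. Of the 28d kidneys, 3 of 6 were above every sham kidney. Ddit3 rose at 28d against 5d by a log2 fold change of 1.11 (SE 0.26, edgeR adjusted p = 0.0337). Against sham it was 0.99 (SE 0.25, edgeR adjusted p = 0.149), and at 5d against sham −0.11 (SE 0.26, adjusted p = 0.956).

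The call of Ddit3 rested on few counts, 5–51 per kidney. It was kept in 16 of 22 fits that each left out 1 kidney. Without kidney 7 of the 28d group, which held the 16.0 CPM, the log2 fold change was 0.71 (edgeR adjusted p = 0.297). The call was also lost without 28d kidney 1 (adjusted p = 0.0594) or 5d kidney 2 (0.0594), 6 (0.0530), 7 (0.0816) or 8 (0.0668), and when edgeR was fitted to these 2 groups alone (0.0735). Without the filter on low counts, Ddit3 was also called at 28d against sham (edgeR adjusted p = 0.0131). The gene overlaps Mars, the methionyl-tRNA synthetase on the other strand with 727 counts over all kidneys, and Gm4189. The sources used here do not state whether counting used the strand, so reads of such partners cannot be told apart.

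Atf5, a transcription factor related to ATF4 that is translated under the same control and acts in the mitochondrial stress response, did not follow Atf4 (chromosome 7, 44812256–44816658, minus strand). It was 19.1–34.2 CPM in sham, 16.1–28.3 CPM at 5d and 16.9–31.8 CPM at 28d, and the groups overlapped widely. The log2 fold change was −0.21 (SE 0.12, edgeR adjusted p = 0.712) at 5d and −0.08 (SE 0.13, adjusted p = 0.921) at 28d against sham, with a 95% interval of −0.35 to 0.19 at 28d. It overlaps Nup62 on the other strand, which had 729 counts.

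Ppp1r15a encodes GADD34, the phosphatase subunit that removes the phosphate from eIF2 and so ends the response (chromosome 7, 45522916–45526268, minus strand). Over the 22 kidneys its log2 level correlated with that of Gdf15 at r = 0.637 and with that of Atf4 at r = 0.337 (0.339 and −0.05 within groups), given as a description. The lowest, median and highest kidneys were at 6.19, 12.2 and 15.2 CPM in sham, at 4.23, 8.09 and 10.8 CPM at 5d and at 7.73, 14.6 and 18.7 CPM at 28d. Of the 28d kidneys, 4 of 6 lay above every kidney at 5d. The log2 fold change was −0.54 (SE 0.18, edgeR adjusted p = 0.431) at 5d against sham and 0.25 (SE 0.18, adjusted p = 0.765) at 28d against sham. At 28d against 5d it was 0.79 (SE 0.20) and just missed the threshold in edgeR (adjusted p = 0.0596). DESeq2 called it (adjusted p = 0.0354), as did edgeR without the count filter (0.00171) and 5 of 22 edgeR fits without 1 kidney. Leaving out 28d kidney 3, which had the lowest level of its group, gave 0.90 (edgeR adjusted p = 0.0157).

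Trib3, a pseudokinase that feeds back on ATF4 and CHOP, and Chac1, an enzyme that degrades glutathione and is a sensitive target of ATF4 and CHOP, were near the limit of detection. Trib3 (chromosome 2, 152337422–152344032, minus strand) had 0–4 counts per sham kidney, 1–5 at 5d and 0–6 at 28d. Chac1 (chromosome 2, 119351229–119354381, plus strand) had 0–3, 0–6 and 0–2 counts. Neither passed the filter on low counts, so no fold change is given. Neither gene thus rose in any group to the counts that the filter asks for, while changes below that level could not be measured at this depth.

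Asns, which makes asparagine and is a classic target of ATF4 when amino acids are short, was not higher at 28d (chromosome 6, 7675169–7693254, minus strand). It was 3.33–6.74 CPM in sham, 3.05–6.32 CPM at 5d and 3.22–4.83 CPM at 28d. Of the 28d kidneys, 5 of 6 lay at 3.22–3.58 CPM. The log2 fold change of 28d against sham was −0.40 (SE 0.23, edgeR adjusted p = 0.643), with a 95% interval of −0.86 to 0.06. At 5d against sham it was −0.20 (SE 0.20, adjusted p = 0.873).

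Sesn2 and Ddit4 both restrain the growth kinase complex mTORC1, Sesn2 as a leucine sensor and Ddit4 (also named REDD1) in hypoxia, after glucocorticoids and under stress. Sesn2 (chromosome 4, 132492032–132510501, minus strand) was 13.5–24.4 CPM in sham, 10.8–21.6 CPM at 5d and 10.97–24.8 CPM at 28d. Its log2 fold change was −0.07 (SE 0.14, edgeR adjusted p = 0.948) at 5d and −0.09 (SE 0.16, adjusted p = 0.920) at 28d against sham, with a 95% interval of −0.41 to 0.22 at 28d. Ddit4 (chromosome 10, 59949669–59951834, minus strand) was 26.3–77.4 CPM in sham, 19.6–80.0 CPM at 5d and 49.7–89.3 CPM at 28d. Its log2 fold change was −0.36 (SE 0.25, edgeR adjusted p = 0.794) at 5d against sham, 0.27 (SE 0.26, adjusted p = 0.852) at 28d against sham and 0.63 (SE 0.27, adjusted p = 0.496) at 28d against 5d.

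The 8 tested genes did not share a direction at 28d. At 5d against sham all 8 had a log2 fold change below 0, with a median of −0.21 beside 0.000176 for all tested genes, but none was called by edgeR or DESeq2, and 2 of 8 had an unadjusted p under 0.05, beside 7.9% of all genes and 3.97% of all genes with lower levels. At 28d against sham, 3 of the 6 genes besides Atf4 and Gdf15 were above 0, with a median over the 6 of 0.09. None of the 6 was called there by edgeR or DESeq2, and 1 of them, Ddit3, had an unadjusted p under 0.05 beside 8.68% of all genes. At 28d against 5d, 4 of these 6 were above 0 with a median of 0.38, and 3 of 6, Ddit3, Ddit4 and Ppp1r15a, had an unadjusted p under 0.05 beside 9.05% of all genes. The comparisons share kidneys, so their values are not independent of each other.

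**Figure D2:**
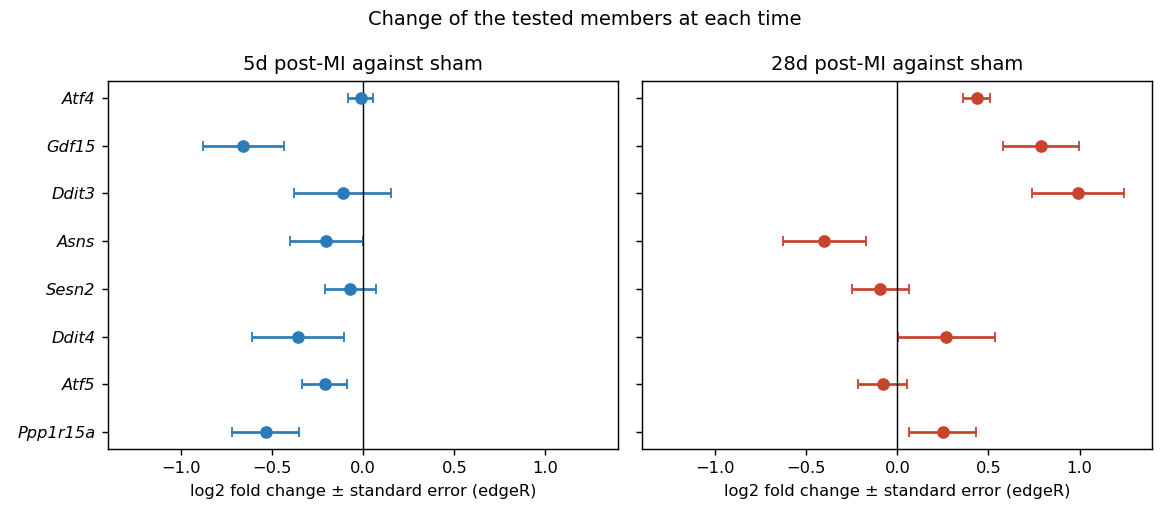
Log2 fold change with its standard error from edgeR for the 8 tested genes, at 5d post-MI against sham (left) and at 28d post-MI against sham (right). All 8 lie below 0 at 5d, from −0.66 for Gdf15 to −0.01 for Atf4, and at 28d Ddit3, Gdf15 and Atf4 lie furthest to the right while Asns lies furthest to the left.

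Upstream of Atf4, none of the 4 eIF2 kinases and none of 12 subunits of eIF2, its exchange factor and its phosphatases was called by edgeR or DESeq2 in any comparison. At 28d against sham their medians were 0.02 and 0.06, and 1 gene of each list had an unadjusted p under 0.05, beside 8.68% of all genes. It was 0 and 0 at 5d against sham, beside 7.9%, and 1 and 0 at 28d against 5d, beside 9.05%. The subunit Eif2s2 of eIF2 was at 0.08 (SE 0.07) and the phosphatase Ppp1cb at −0.03 (SE 0.06). Eif2ak1, the kinase that senses a lack of haem, had a log2 fold change of 0.21 (SE 0.09, edgeR adjusted p = 0.531), and Eif2ak3, the kinase PERK of the endoplasmic reticulum, 0.13 (SE 0.13, adjusted p = 0.858). Of the relay that links mitochondrial stress to eIF2, 7 of 8 genes were tested and none was called by edgeR or DESeq2, with a median of 0.05 at 28d against sham. At 5d against sham, 28d against sham and 28d against 5d, 0, 0 and 2 of these genes had an unadjusted p under 0.05, beside the same shares of all genes. Its 2 most abundant genes, the mitochondrial chaperones Hspa9 and Hspd1, had values of 0.05 (SE 0.04) and 0.01 (SE 0.07).

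The 4 lists of wider targets of ATF4 had medians from −0.14 to 0.05 at 28d against sham. None of 10 tested genes of amino acid synthesis, 6 of amino acid transport, 13 aminoacyl-tRNA synthetases and 14 other targets of ATF4 and CHOP was called by edgeR or DESeq2 in any comparison. The medians at 28d against sham were 0.05, −0.14, 0.05 and −0.04. Of these 43 genes, 4 had an unadjusted p under 0.05 at 5d against sham, all lower, beside 7.9% of all genes. At 28d against sham it was 4, of which 2 were higher and 2 lower, beside 8.68%, and at 28d against 5d it was 6, of which 4 were higher and 2 lower, beside 9.05%. The 2 lower at 28d against sham, named after their values were seen, were Eif4ebp1, an inhibitor of translation initiation, at −0.53 (SE 0.15, edgeR adjusted p = 0.231), and the glutamine transporter Slc1a5 at −0.45 (SE 0.15, adjusted p = 0.377). The amino acid transporter Slc38a2 was at 0.33 (SE 0.11, edgeR adjusted p = 0.361) and its fellow Slc3a2, the heavy chain of several exchangers, at −0.12 (SE 0.07, adjusted p = 0.662). Shmt2, the mitochondrial enzyme of serine and glycine metabolism, was at 0.09 (SE 0.08), Cth, which makes cysteine, at 0.06 (SE 0.06), Sars, the seryl-tRNA synthetase, at 0.10 (SE 0.06), and Nars, the asparaginyl-tRNA synthetase, at 0.00 (SE 0.07). Herpud1, a factor of protein degradation at the endoplasmic reticulum, was at 0.22 (SE 0.12), and the autophagy receptor Sqstm1 at 0.01 (SE 0.06). Of 6 paralogs of the members, none was called by edgeR or DESeq2 and none had an unadjusted p under 0.05 in any comparison, with Sesn3 at 0.06 (SE 0.12) and Trib2 at 0.18 (SE 0.18).

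**Figure D3:**
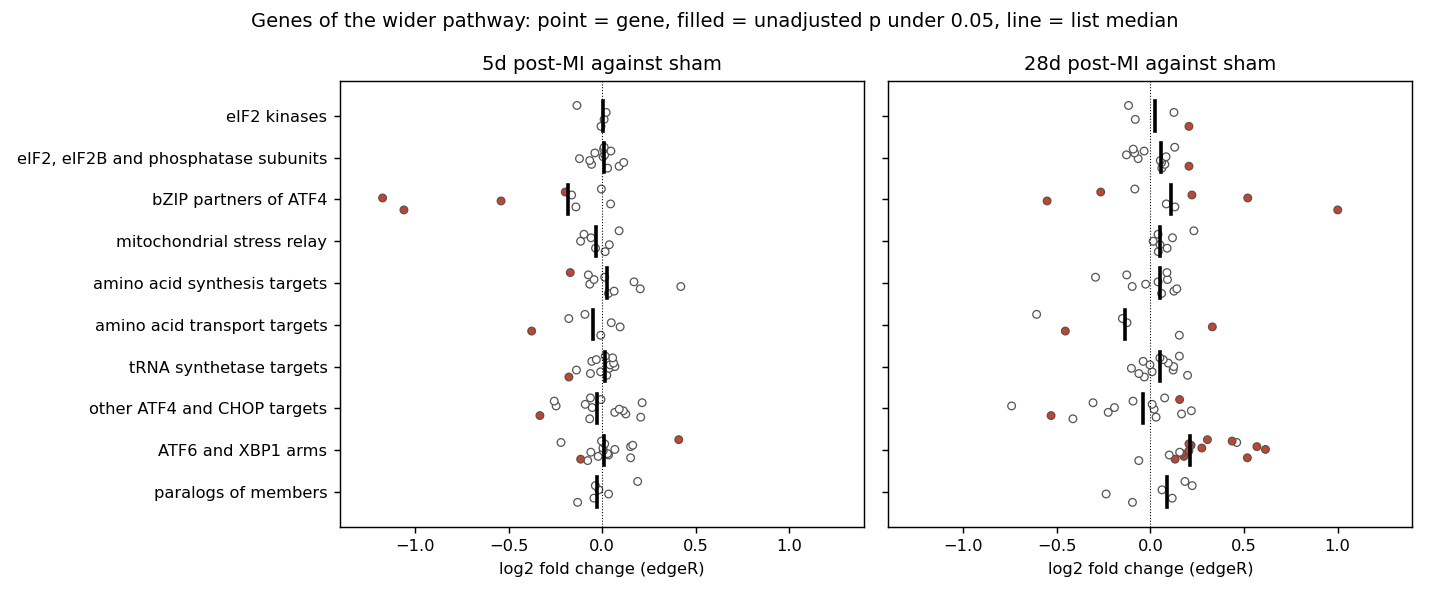
Log2 fold change (edgeR) of every tested gene in 10 lists of the wider pathway at 5d (left) and 28d (right) post-MI against sham; each point is a gene, filled points have an unadjusted p under 0.05, and the vertical line is the median of the list. The lists of eIF2 kinases, amino acid synthesis and tRNA synthetases centre near 0. At 28d the list of amino acid transport has a median of −0.14 and that of the ATF6 and XBP1 arms 0.21.

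The sequences upstream of these genes are shown because ATF4 is known to bind a composite element with the letters TGATGNAA, and because some of the members hold its letters. The element was searched on both strands in the 250 bases before the start of each gene, taken from RefSeq (GRCm38.p6), where all 10 genes were matched. It was present in 2 of 10 members, Chac1 and Asns, and in 3.45% of 32851 promoters. Outside the members it was found among others before Atf3. The letters TGACGTCA, the cyclic AMP response element, were found in 1 of 10 members, Ppp1r15a, and in 1.55% of all promoters. In the stretches below, written 5′ to 3′ on the strand of the gene, capitals mark the element (TTGCATCA is TGATGNAA read on the other strand).
Chac1, chr2:119351012-119351111, plus strand: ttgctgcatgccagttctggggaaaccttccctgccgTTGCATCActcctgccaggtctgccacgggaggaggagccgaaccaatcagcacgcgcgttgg
Asns, chr6:7693210-7693309, minus strand: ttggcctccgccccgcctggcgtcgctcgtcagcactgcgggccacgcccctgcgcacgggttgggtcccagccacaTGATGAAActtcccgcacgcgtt
Atf3, chr1:191183384-191183483, minus strand: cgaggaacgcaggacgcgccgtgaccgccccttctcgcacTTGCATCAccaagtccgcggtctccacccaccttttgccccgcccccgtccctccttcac
Ppp1r15a, chr7:45526269-45526368, minus strand: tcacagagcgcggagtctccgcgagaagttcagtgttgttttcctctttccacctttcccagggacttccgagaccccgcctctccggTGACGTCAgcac
Of the 2 members with the composite element, Chac1 had at most 6 counts in any kidney and Asns was at −0.40 at 28d against sham. Ppp1r15a, with TGACGTCA close to its start, was at −0.54 at 5d and 0.25 at 28d against sham. In the whole window of 300 bases, which runs past the start, TGATGNAA was present in 3 of 10 members, with Trib3 added, and in 3.97% of all promoters. A match describes the letters and not a bound site, and nothing follows for a gene without one.

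The other arms of the unfolded protein response, run by ATF6 and XBP1, were mostly above 0 at 28d. None of their 16 genes, chaperones and folding or degradation factors of the endoplasmic reticulum, was called by edgeR or DESeq2 at 28d against sham. Of these, 12 had an unadjusted p under 0.05, all with higher levels at 28d, beside 4.45% of all tested genes, and 15 of 16 were above 0 with a median of 0.21. At 5d against sham the median was 0.01. At 28d against 5d, 8 of 16 had an unadjusted p under 0.05 with higher levels, beside 5.03% of all genes. Hspa5, the master chaperone BiP, was 262 CPM in the lowest, 317 in the median and 429 in the highest sham kidney, 264, 331 and 412 CPM at 5d, and 281, 445 and 777 CPM at 28d. Its log2 fold change at 28d against sham was 0.61 (SE 0.19, edgeR adjusted p = 0.323). Calr, the chaperone calreticulin, was 505–632 CPM in sham, 472–589 CPM at 5d and 536–708 CPM at 28d. Calr rose at 28d against 5d by a log2 fold change of 0.25 (SE 0.06, edgeR adjusted p = 0.0477), a call that was lost when the 2 groups were fitted alone, with RLE factors, with library totals and without the kidneys with adrenal RNA. With 1 kidney left out, it was also lost without sham kidney 1, 2, 6, 7 or 8. The same held without 5d kidney 1, 2, 3, 7, 8 or 9 and without 28d kidney 2, 3, 4 or 6.

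The size of the values of this list rested largely on 2 of the 28d kidneys, which were also among the highest for Atf4. Its summed level was 1546–1938 CPM in sham and 1582–1857 CPM at 5d. At 28d it was 2343 CPM in kidney 2 and 2750 CPM in kidney 3, against 1618–2029 CPM in the other 4. Kidney 7, at 2029 CPM, also lay above every sham kidney. Without kidney 3 the number of genes with an unadjusted p under 0.05 at 28d against sham was 4 of 16 and without kidney 2 it was 5 of 16. Without both it was 1 of 16, with a median log2 fold change of 0.08, while 15 of 16 were still above 0. These fits were chosen after the values had been seen. Without the kidneys with adrenal RNA, 6 of 16 had an unadjusted p under 0.05, with a median of 0.24. The endoplasmic reticulum stress element, CCAAT and CCACG with 9 bases between them on either strand, was present before 7 of 13 genes of this list with a promoter in the table, before 0.113% of all promoters and before no member. It was searched after the values had been seen. Hspa5 and Calr are shown with their matches in capitals.
Hspa5, chr2:34771940-34772069, plus strand: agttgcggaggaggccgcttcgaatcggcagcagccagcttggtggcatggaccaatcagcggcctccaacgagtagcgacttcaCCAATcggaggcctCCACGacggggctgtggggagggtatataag
Calr, chr8:84847032-84847131, minus strand: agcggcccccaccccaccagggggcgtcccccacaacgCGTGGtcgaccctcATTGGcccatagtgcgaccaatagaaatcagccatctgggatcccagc

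Among 8 transcription factors of the bZIP class that can pair with ATF4 or share its sites, 3 were called by edgeR at 28d against 5d, beside 0.415% of all genes. In the other comparisons edgeR called none, with 4 genes at an unadjusted p under 0.05 at 5d against sham, all lower, beside 7.9% of all genes. At 28d against sham it was 5, 3 higher and 2 lower, beside 8.68%. DESeq2 called 1 at 5d against sham and 0 at 28d against sham, beside 36 and 33 genes that it called in all. Atf3, a target and partner of ATF4, was 0.751–5.67 CPM in sham, 0–3.14 CPM at 5d and 3.94–10.5 CPM at 28d, and rose at 28d against 5d by 2.06 (SE 0.36, edgeR adjusted p = 0.00287). Its mean at 5d was 1.48 CPM, so this value rested on few counts. Jun was 44.3–131 CPM in sham, 20.4–61.7 CPM at 5d and 85.4–191 CPM at 28d, and rose by 1.69 (SE 0.26, adjusted p = 0.00342). Jund rose by 0.39 (SE 0.09, adjusted p = 0.0435). At 28d against sham Atf3 was at 1.001 (SE 0.31, edgeR adjusted p = 0.290) and Jun at 0.52 (SE 0.24, adjusted p = 0.559). The 2 lower genes there, named after their values were seen, were Fosl2 at −0.55 (SE 0.17, edgeR adjusted p = 0.267) and Maf at −0.26 (SE 0.10, adjusted p = 0.449), and at 5d against sham they were at −0.54 (SE 0.15) and −0.20 (SE 0.09). Atf3 and Jun therefore had their lowest levels at 5d, as Gdf15 and Ppp1r15a had.

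Immediate early genes, which switch on within minutes of a stimulus, were lowest at 5d as well. The summed level of 12 such genes was 752–1798 CPM in sham, 278–812 CPM at 5d and 1195–2765 CPM at 28d. All 10 tested genes of the list were below 0 at 5d against sham, with a median of −1.56. Of these, 9 had an unadjusted p under 0.05, beside 3.97% of all genes with lower levels. None was called by edgeR, while DESeq2 called 7, beside 36 genes that it called in all. At 28d against 5d all 10 had an unadjusted p under 0.05 with higher levels. There edgeR called 7, beside 0.415% of all genes, and DESeq2 called 9, beside 91 genes that it called in all. Among those called by edgeR were Fos, which rose by 2.14 (SE 0.39, edgeR adjusted p = 0.0109) and Ier2, which rose by 2.25 (SE 0.35, adjusted p = 0.0037). Kidney 4 at 28d had both the highest Gdf15, at 54.6 CPM, and the highest immediate early sum, while kidneys 2 and 3, among the highest for Atf4, had the lowest sums of the 28d group, at 1330 and 1195 CPM. The part of these genes in the members' values was not tested.

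**Figure D4:**
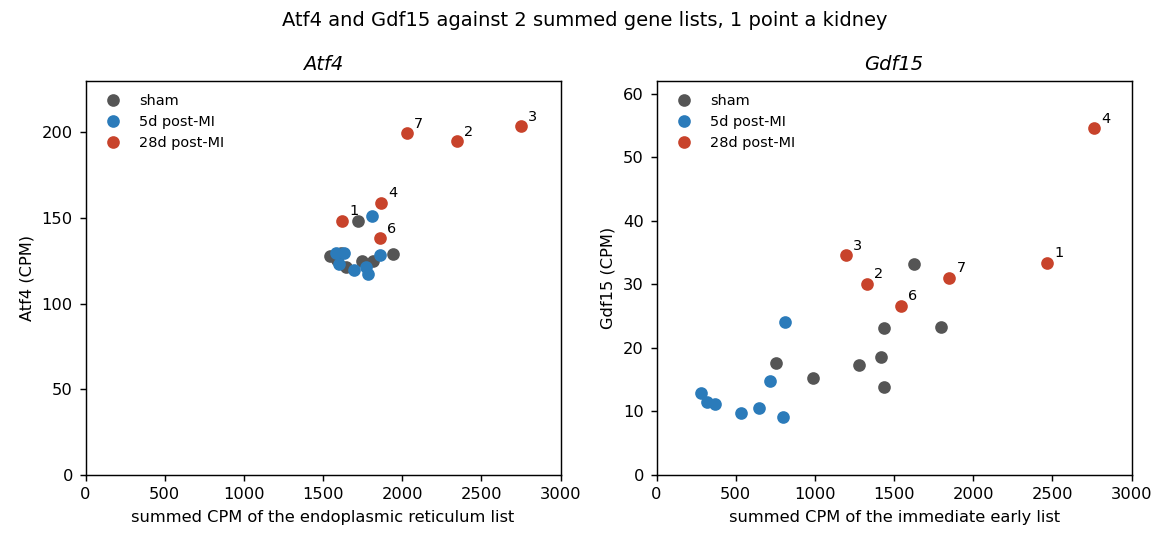
Left, Atf4 against the summed CPM of the 16 endoplasmic reticulum genes of the ATF6 and XBP1 arms; right, Gdf15 against the summed CPM of 12 immediate early genes; each point is 1 kidney, coloured by group, and numbers name the 28d kidneys. Kidneys 2, 3 and 7 stand highest for Atf4 and kidney 4 for Gdf15.

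Across the 22 kidneys some members went with these sums and others did not, given here as a description since the kidneys share groups and the pairs were chosen after the values were seen. On the log2 scale, Atf4 and the endoplasmic reticulum sum had a Pearson r of 0.773 (Spearman 0.446) and 0.604 after group means were subtracted. Without 28d kidneys 2 and 3, the 2 farthest from the median of the sum, these values were 0.496 and 0.33, so much of the relation rested on those kidneys. Gdf15 and the immediate early sum had r = 0.782 (Spearman 0.78) and 0.405 within groups, and r = 0.799 without the 2 farthest kidneys. For Ppp1r15a and the same sum r was 0.718 (Spearman 0.746) and 0.486 within groups, and 0.729 without those 2. Ddit4 with this sum gave 0.639 (Spearman 0.558) and 0.46 within groups, and 0.571 without those 2, and Atf5 gave 0.441 and 0.393 within groups. Atf4 with the immediate early sum gave 0.397 and −0.217 within groups. For Ddit3 with this sum it was 0.487 and 0.174, and Sesn2 went the other way, at −0.212 and −0.433. Asns with the endoplasmic reticulum sum gave −0.501 and −0.376 within groups. Between members, the r largest in size within groups was −0.497, for Sesn2 and Ppp1r15a, which had −0.385 over all kidneys. Atf4 and Gdf15 themselves had r = 0.59 over all kidneys and −0.03 within groups. The proximal tubule sum, most of which was Kap, had r = 0.53 with Atf4 and 0.448 with Gdf15, and 0.179 and 0.05 within groups. Asns had r = 0.678 with the summed level of 7 urothelial genes and 0.629 within groups, and Atf5 0.56 and 0.515. That sum was 20.5–62.4 CPM in sham, 12.0–63.2 CPM at 5d and 17.1–31.4 CPM at 28d, and its part in the values of Asns and Atf5 was not tested.

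The genes most like Atf4 and most like Gdf15 were different ones, among 9306 genes with a mean of at least 10 CPM. For Atf4 over all 22 kidneys they included Osgin1 (r = 0.83), a target of the antioxidant factor NRF2, the cytosolic chaperone Hsp90aa1 (0.82), the tubulin gene Tubb4b (0.80) and Hspa5 (0.80). Osgin1 was 41.7–102 CPM in sham, 49.6–72.4 CPM at 5d and 71.9–145 CPM at 28d. Within groups the leading genes for Atf4 were Stt3a (0.83), a subunit of the enzyme that attaches glycans in the endoplasmic reticulum, Prorsd1 (0.82), the haem oxygenase Hmox1 (0.80), Rbm14 (0.78) and Gm12346 (0.77). For Gdf15 over all kidneys they were the matricellular gene Ccn1 (0.81), Ier2 (0.80), the histone gene Hist1h4i (0.80), Jun (0.79) and Jund (0.78). Within groups they were Acmsd (0.77), Asb13 (0.77), Hoxc6 (0.74), Cldn10 (0.73) and 4933431E20Rik (0.73). None of the genes named for all kidneys was named again within groups.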

How the data were processed

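Kidney RNA of mice after LAD ligation or sham surgery was sequenced by MACE. The authors used Cutadapt for trimming and HTSeq for counting on the mouse genome, and deposited the raw counts per gene. The tpm values that the authors deposited beside them are counts scaled to the column total (within 5e-06 of CPM) and were not otherwise used. Build statements conflict between the sources (mm10 and mm39), so positions are from GENCODE M21 (GRCm38) and were used for names and places only. Per the labels, 24 kidneys exist. A pair of count columns share a name, so 4 of 48 value columns could not be assigned and were not used. Within groups, each of the 71 pairs of kidneys differed by more than sampling noise (chi-squared over its degrees of freedom 1.77–8.10).

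Counts of 12780 genes kept by filterByExpr (minimum 10 counts) were fitted by edgeR 4.0.16 in R 4.3.3 with TMM factors, 3 groups, no covariate and the robust quasi-likelihood F test, two-sided, with Benjamini-Hochberg adjustment over all genes tested, called under 0.05. The SE was taken from the log2 fold change and F. Log2 CPM used a prior count of 2. Each kidney came from a different mouse. The fit was tested on simulated data first. Alternatives were DESeq2 1.42.0, the 2 groups alone, RLE factors, library totals, no count filter, a replicate block, no kidneys over 100 CPM of adrenal genes, and each kidney left out. The members and gene lists were chosen with earlier results of these data known. From each pathway list the called genes are named or, where there are none, the 2 with the highest mean level, and for likeness the 5 genes with the highest r, of which 1 is not reported here. Cell type marker lists are given mainly as sums. Hspa5 is named as a likeness gene. A count of 0 allows up to 3 counts in that library, for counting error only. The plots used Python 3.11.15 and matplotlib 3.10.9.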

Additional observations from a re-analysis of the deposited data

Results flagged for a closer look

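In 6 of 30 groups of kidneys of 1 gene, 1 kidney stood apart from the rest by Dixon's ratio, and in all 6 it was the highest. The threshold gives about 1 in 20 for normally distributed values. It was applied to CPM without a log, so the rate by chance here is not known. Atf4 was 148 CPM in sham kidney 6, with the next at 130 CPM, and 151 CPM in 5d kidney 9, with the next at 130 CPM. Sham kidney 6 is one of the kidneys with adrenal RNA. Gdf15 was 24.1 CPM in 5d kidney 1, next 14.7 CPM, and 54.6 CPM in 28d kidney 4, next 34.6 CPM. Ddit3 was 16.0 CPM in 28d kidney 7, next 8.05 CPM, and Asns was 4.83 CPM in 28d kidney 1, next 3.58 CPM.

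The 2 times after MI differed, by the test of 28d against 5d in edgeR, for 16 of the genes described or listed here, not counting Atf4 and Gdf15. Among all 12780 tested genes 53 (0.415%) were called there, and the lists were chosen with earlier results of these data known. Higher at 28d were Ddit3 with a log2 fold change of 1.11, Atf3 with 2.06, Jun with 1.69, Jund with 0.39 and Calr with 0.25. The calls of Ddit3 and Calr were each lost in some fits that left out 1 kidney. The immediate early genes Fos (2.14), Egr1 (2.10), Nr4a1 (1.998), Ier2 (2.25), Btg2 (1.97), Zfp36 (1.52) and Dusp1 (1.55) were also higher. Lower at 28d were the haemoglobin genes Hba-a1 with −1.78, Hba-a2 with −1.80, Hbb-bs with −1.75 and Hbb-bt with −1.88, which were called as higher at 5d against sham. Without the kidneys with adrenal RNA, edgeR called 1 gene in all at 5d against sham, so at most 1 of these calls was kept there.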

How the results depend on the processing

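The number of all genes called depended on the processing. At 5d against sham it was 9, and 36 with DESeq2, 2 with the 2 groups alone, 5 with library totals, 80 without the count filter, 1 without the kidneys with adrenal RNA and 1–38 without 1 kidney. At 28d against sham it was 3, and 33, 31, 1, 94, 1 and 0–29 in the same order. At 28d against 5d it was 53, and 91 with DESeq2, 26 with the 2 groups alone, 160 without the filter and 41–84 without 1 kidney. Of the members, 1 was called at 28d against sham, Atf4. It was 2 with DESeq2, with Gdf15 added, and 2 without the filter, with Ddit3 added. Without 1 kidney it was 0–1, with 0 without 28d kidney 2 or 7. Atf4 and Gdf15 were chosen by their level there, so their part in these counts is a description only. At 28d against 5d it was 2–4 members without 1 kidney, Atf4 and Gdf15 among them in each of these fits, and at 5d against sham 0 in each fit that was run. Small values changed sign in single fits. Atf4 at 5d against sham was 0.0252 without the adrenal kidneys and between −0.054 and 0.0155 without 1 kidney. At 28d, Atf5 against sham was −0.163 to 0.0161, Sesn2 against sham −0.213 to 0.0213 and Sesn2 against 5d −0.141 to 0.0894 without 1 kidney. The cause was not tested.

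With the replicate number as a block, 2, 24 and 80 genes were called in the comparisons in this order. The numbers did not pair the kidneys: the deviations of 18 same-numbered pairs correlated at −0.13 to 0.09, and none over 0.1. Genes with few counts, such as Ddit3, Asns, Atf3, Trib3 and Chac1, are limited by depth.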
